A study of Mus musculus with 6 samples.

Results

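Transcription factors of the cardiac cushion mesenchyme and of the epithelial-to-mesenchymal transition (EMT) were examined in the mouse outflow tract (OFT). The group has 10 members, *Snai1*, *Snai2*, *Twist1*, *Twist2*, *Zeb1*, *Zeb2*, *Prrx1*, *Msx1*, *Msx2* and *Sox9*, which were found by matching gene symbols to the Ensembl identifiers of the counts table. All 10 were among the 28777 genes listed, and all 10 were among the 28157 genes with more than 5 reads over the libraries, which were tested. Cushions form when endocardial cells lose their junctions, leave the endocardial sheet and invade the matrix beneath it. Snail and Zeb proteins are zinc-finger repressors of junction genes such as E-cadherin, and Twist proteins are basic helix-loop-helix (bHLH) factors of mesenchymal cells. Prrx1, Msx1 and Msx2 are homeobox factors of embryonic mesenchyme, and Sox9 is an HMG box factor needed in cushion mesenchyme and in cartilage. In the OFT such mesenchyme comes from the endocardium and from the cardiac neural crest, and it later forms the semilunar valves and the septum between the great arteries.

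RNA was taken at E13.5, midgestation, from *Notch1*+/-*; Nos3*-/- embryos and from wildtype littermates, all in a C57/BL6J background. By this genotype mutant embryos carry a single functional *Notch1* allele and are null for *Nos3*, the endothelial nitric oxide synthase gene. There were 6 bulk libraries, 3 labelled mutant and 3 labelled wildtype, and each was a pool of 3 OFTs (18 in all) that included every cell type of the dissected tissue. Both are targeted alleles of the whole animal, and no Cre driver is described for these embryos. Library totals of the authors' counts were 44387490, 43329291 and 34729103 for wildtype replicates 1, 2 and 3, and 38640033, 35551470 and 36917298 for mutant replicates 1, 2 and 3. Levels are given as CPM, the usual depth-scaled counts, here after TMM scaling, and fold changes are log2 values of libraries labelled mutant over libraries labelled wildtype. A gene counted as called when its Benjamini-Hochberg adjusted p in edgeR's quasi-likelihood fit of all genes tested did not exceed 0.05. The floor was 3 counts in a library, between 0.0675 and 0.0924 CPM, and covers counting error only.

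The targeted genes give a limited check of the labels. *Notch1* (ENSMUSG00000026923) had 74.3, 88.2 and 83.6 CPM in wildtype replicates 1, 2 and 3, and 154.9, 160.5 and 139.4 CPM in mutant replicates 1, 2 and 3. It was called higher in the libraries labelled mutant (log2 fold change 0.89, standard error 0.10, edgeR adjusted p = 0.0313), although that genotype has a single functional allele. Counts over a whole gene do not separate a disrupted from an intact allele, so they cannot tell how many alleles are functional. All mutant libraries were above all wildtype libraries, and *Notch1* was also called by DESeq2 (adjusted p = 6.25e-11) and limma-voom (adjusted p = 0.0192). In edgeR the call of *Notch1* was lost when any library other than wildtype replicate 1 was left out, with a log2 fold change between 0.82 and 0.94 over the fits that each omitted 1 library. It was lost as well after a correction for gene GC content and length (log2 fold change 0.69, edgeR adjusted p = 0.0587) and with a Myocardial covariate (0.84, edgeR adjusted p = 0.0949), and kept with a Mesenchymal covariate (0.94, edgeR adjusted p = 0.0190). The largest adjusted p of *Notch1* over all settings was 0.339. *Nos3* (ENSMUSG00000028978) had 31.8, 47.2 and 48.1 CPM in the wildtype replicates and 22.1, 21.98 and 20.4 CPM in the mutant replicates, so the groups did not overlap. Its log2 fold change of −0.98 was not called by edgeR (adjusted p = 0.128) but was by DESeq2 (adjusted p = 9.14e-06), and by edgeR without wildtype replicate 1 (adjusted p = 0.00176), with values up to 0.576 over the alternative settings. The libraries labelled as *Nos3* null thus kept reads of the gene, at a fold of 0.508 of the wildtype label. Per the labels, embryos were genotyped before their OFTs were pooled. Because of *Notch1*, libraries are referred to as labelled mutant or labelled wildtype throughout.

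All 10 transcription factors had a higher mean in the libraries labelled mutant, from 0.07 for *Zeb2* to 0.92 for *Sox9* on the log2 scale, although *Zeb2* turned lower with GC content and length corrected for, *Zeb2* and *Snai2* did without wildtype replicate 3, and up to 5 of the 10 did with covariates described below. The median of the 10 log2 fold changes was 0.63, beside 0.01 over all genes tested. None of the 10 was called by edgeR (0 members, where 0.0213% of all genes tested were called in either direction), and limma-voom likewise called 0 (0.0178% of all genes). At an unadjusted p under 0.05, 5 of the 10 were higher and 0 lower, namely *Snai1*, *Twist1*, *Prrx1*, *Msx1* and *Sox9*, where 8.23% of all genes tested were higher and 7.83% lower at that level. DESeq2's Wald test called 2 of the 10 higher, *Snai1* and *Msx1*, where it called 2.31% of 17781 genes higher and 1.91% lower. Only *Prrx1*, 1 of the 10, had groups without overlap, where 10.7% of all genes did not overlap with the mutant label higher and 8.94% with it lower.

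The calls differed between tools, as above, and with the libraries kept. Without wildtype replicate 1, 7 of the 10 were called higher, *Snai1*, *Snai2*, *Twist1*, *Prrx1*, *Msx1*, *Msx2* and *Sox9*, where 4.15% of all genes tested were called higher and 5.30% lower. Their log2 fold changes without that library lay between 0.88 and 1.53, with edgeR adjusted p from 0.00778 to 0.0214. The median over the 10 was 1.05 without it, and 0.45 without wildtype replicate 3. In the latter fit *Twist1* fell to a log2 fold change of 0.40, *Prrx1* to 0.50, *Msx2* to 0.29 and *Zeb1* to 0.05. In the edgeR fits that omitted any other library, 0 of the 10 were called, where 0.00364% to 0.0109% of all genes tested were called.

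**Figure D1:**
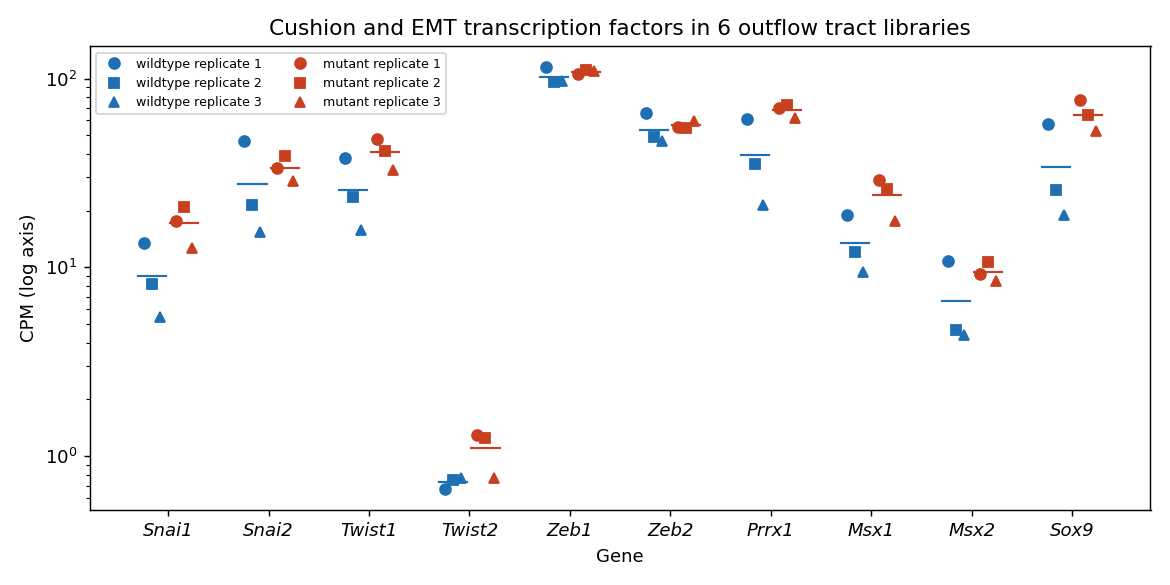
CPM on a log axis (vertical) of the 10 transcription factors (horizontal) in the 6 OFT libraries, wildtype label in blue and mutant label in red. Symbols are single libraries and short lines are group means over 3 libraries. For *Sox9* wildtype replicate 1 lies at 57.1 CPM beside mutant libraries at 52.7 to 76.7 CPM, and wildtype replicates 2 and 3 lie below at 25.6 and 18.95 CPM.

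*Sox9* (ENSMUSG00000000567, chromosome 11 of mm10 from 112782224 to 112787760) had the largest fold change of the 10 with all libraries. Its log2 value was 0.92, beside 0.91 for *Snai1*. *Snai1* had the larger value of these genes without wildtype replicate 2 or 3, or without mutant replicate 1 or 3. *Sox9* had it without wildtype replicate 1 or mutant replicate 2. *Sox9* had 57.1, 25.6 and 18.95 CPM in wildtype replicates 1, 2 and 3, and 76.7, 64.0 and 52.7 CPM in mutant replicates 1, 2 and 3. Wildtype replicate 1 was inside the range of the mutant libraries, and the other wildtype libraries were below all of them. The group means were 33.9 ± 20.4 CPM (SD, n = 3) for the wildtype label and 64.5 ± 12.1 CPM (SD, n = 3) for the mutant label. The fold was 1.90 with a 95% interval of 1.16 to 3.12, and *Sox9* was not called (log2 standard error 0.32, edgeR adjusted p = 0.235). Over the alternative settings of edgeR, DESeq2 and limma that had no replicate block, the adjusted p of *Sox9* ran from 0.00778 to 0.905. The smallest was that of edgeR without wildtype replicate 1. Two-sided exact permutation tests of log2 of CPM plus 0.5 gave p = 0.2 for *Sox9*, and 3 libraries against 3 cannot give a p under 0.1.

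*Snai1* (ENSMUSG00000042821, chromosome 2 from 167538195 to 167542814) encodes the Snail repressor, an early factor of EMT. It had 600, 338 and 177 counts in wildtype replicates 1, 2 and 3, and 703, 786 and 479 counts in the mutant replicates, with means of 9.03 ± 4.09 CPM and 17.1 ± 4.16 CPM (SD, n = 3). In counts and in CPM the groups overlapped only through wildtype replicate 1, which was above mutant replicate 3. The fold was 1.88 with a 95% interval of 1.218 to 2.906 (edgeR adjusted p = 0.213). DESeq2's Wald test did call *Snai1* (adjusted p = 0.0357). Over the alternative settings of edgeR, DESeq2 and limma that had no replicate block, the value ran from 0.0203 (edgeR without wildtype replicate 1) to 0.908. *Snai2* (ENSMUSG00000022676, chromosome 16 from 14705852 to 14709385) encodes Slug, the related repressor that is abundant in neural crest and cushion mesenchyme. It had 46.5, 21.3 and 15.3 CPM in the wildtype replicates and 33.6, 38.7 and 28.7 CPM in the mutant replicates. Here wildtype replicate 1 was the highest of all 6 libraries, and the other wildtype libraries were below all mutant libraries. The log2 fold change of *Snai2* was 0.28 (standard error 0.32, edgeR adjusted p = 0.710), and it lay between −0.01 without wildtype replicate 3 and 0.88 without wildtype replicate 1.

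*Twist1* (ENSMUSG00000035799, chromosome 12 from 33957671 to 33959829) encodes a bHLH factor of cushion and neural crest mesenchyme. It had 38.0, 23.5 and 15.8 CPM in wildtype replicates 1, 2 and 3, and 47.7, 41.2 and 32.9 CPM in the mutant replicates. Only wildtype replicate 1 reached the range of the mutant libraries. The fold was 1.57 with a 95% interval of 1.06 to 2.34 (edgeR adjusted p = 0.266). *Twist2* (ENSMUSG00000007805, chromosome 1 from 91801461 to 91848028), known from dermal and other connective tissue, had the fewest counts of the 10. It had 30, 31 and 25 counts in the wildtype replicates and 52, 47 and 29 in the mutant replicates, which is 0.675, 0.747 and 0.770 CPM against 1.30, 1.25 and 0.769 CPM. Mutant replicate 3 was within the wildtype range. Its fold of 1.52 had a 95% interval of 0.920 to 2.50, an interval that holds a fold of 1.

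The Zeb genes differed least between the groups. *Zeb1* (ENSMUSG00000024238, chromosome 18 from 5591860 to 5775467) had 114.5, 95.3 and 96.9 CPM in wildtype replicates 1, 2 and 3, and 105.0, 110.8 and 109.5 CPM in the mutant replicates. *Zeb2* (ENSMUSG00000026872, chromosome 2 from 44983632 to 45117395) had 65.5, 49.0 and 46.6 CPM in the wildtype replicates and 55.1, 54.9 and 59.7 CPM in the mutant replicates. For both genes wildtype replicate 1 was the highest of all 6 libraries. The fold of *Zeb1* was 1.06 with a 95% interval of 0.908 to 1.24, and that of *Zeb2* was 1.05 with an interval of 0.863 to 1.28. Neither was called with any library left out, and *Zeb2* had its smallest adjusted p without wildtype replicate 1 (0.0993 by edgeR, and up to 0.996 over the alternative settings).

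*Prrx1* (ENSMUSG00000026586, chromosome 1 from 163245119 to 163313710) had 61.07, 35.2 and 21.5 CPM in wildtype replicates 1, 2 and 3, and 69.9, 72.7 and 61.45 CPM in the mutant replicates. The groups did not overlap, but wildtype replicate 1 and mutant replicate 3 were nearly equal. The two-sided exact permutation p of *Prrx1* was 0.1, the smallest p possible, and its fold was 1.73 with a 95% interval of 1.12 to 2.65 (edgeR adjusted p = 0.238). *Msx1* (ENSMUSG00000048450, chromosome 5 from 37820485 to 37824583) had 19.1, 12.1 and 9.46 CPM in the wildtype replicates and 29.2, 26.0 and 17.6 CPM in the mutant replicates. Wildtype replicate 1 was above mutant replicate 3 and below the other mutant libraries. The fold of *Msx1* was 1.79 with a 95% interval of 1.23 to 2.61, and its edgeR adjusted p of 0.198 was the smallest of the 10. DESeq2's Wald test called it (adjusted p = 0.0283), and the alternative settings with no replicate block gave 0.0206 (edgeR without wildtype replicate 1) to 0.889. *Msx2* (ENSMUSG00000021469, chromosome 13 from 53466884 to 53473074) had 10.8, 4.67 and 4.38 CPM in the wildtype replicates and 9.22, 10.7 and 8.46 CPM in the mutant replicates, with wildtype replicate 1 the highest of all 6. Its fold was 1.42 with a 95% interval of 0.898 to 2.25.

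**Figure D2:**
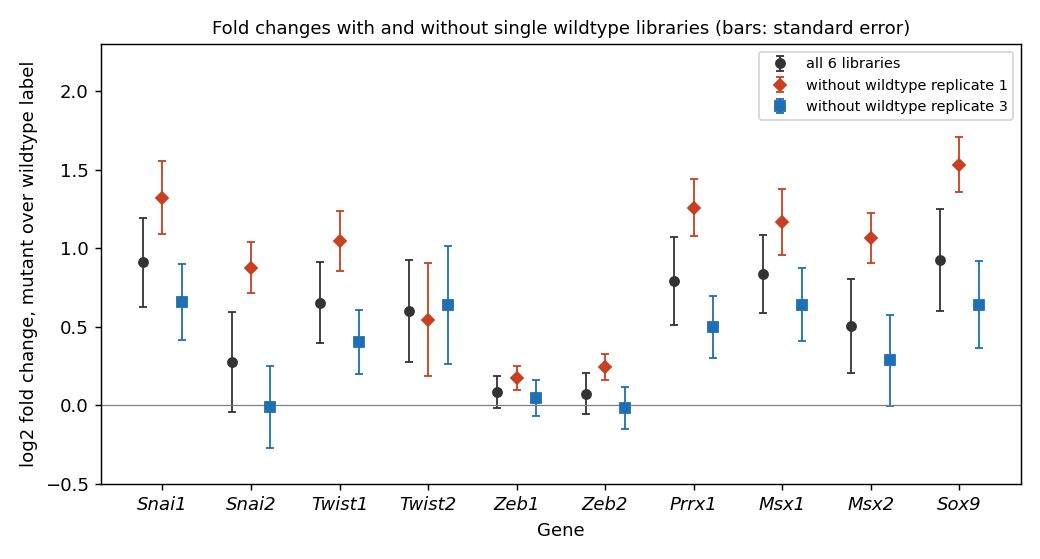
Log2 fold change, mutant over wildtype label (vertical), of each transcription factor (horizontal) from edgeR with all 6 libraries, without wildtype replicate 1 and without wildtype replicate 3. Bars are standard errors. *Sox9* moves from 0.92 with all libraries to 1.53 without wildtype replicate 1, and *Snai2* from 0.28 to 0.88 and, without wildtype replicate 3, to −0.01.

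The libraries labelled wildtype were spread more widely than those labelled mutant. The coefficient of variation was larger in the wildtype libraries for 9 of the 10 transcription factors, and for 68.3% of the 11286 genes that averaged 10 CPM or more. For *Sox9* it was 60.2% against 18.7%, and for *Prrx1* 51.2% against 8.57%. *Twist2* was the exception, at 6.81% against 26.5%. Wildtype replicate 1 was the highest wildtype library for 9 of the 10, beside 40.7% of the genes of at least 10 CPM, and wildtype replicate 3 the lowest for 8 of the 10, beside 30.6%. Wildtype replicates 2 and 3 were both below every mutant library for 9 of the 10, beside 24.8% of the genes of at least 10 CPM, the exception being *Twist2*.

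Levels of different genes were compared per length, as CPM per kb of exon. In the libraries labelled wildtype the order ran from *Twist1* (15.8 ± 6.93 CPM per kb, SD, n = 3) and *Snai2* (13.7 ± 8.19) to *Zeb1* (9.96 ± 1.04) and *Sox9* (8.19 ± 4.94). *Snai1*, *Msx1*, *Prrx1*, *Zeb2* and *Msx2* followed, from 5.57 ± 2.53 down to 2.02 ± 1.11 CPM per kb, and *Twist2* was last at 0.230 ± 0.0157 CPM per kb. Neighbours in this order lay within their spread of each other, apart from *Twist2*. In the libraries labelled mutant *Twist1* was again first at 24.9 ± 4.55 CPM per kb (SD, n = 3), apart from the next by more than the summed SDs. *Snai2* at 16.6 ± 2.47 and *Sox9* at 15.6 ± 2.91 CPM per kb were within their spread of each other. *Zeb1*, *Snai1*, *Msx1* and *Prrx1* followed, from 10.6 ± 0.297 to 6.14 ± 0.527 CPM per kb, each within its spread of the next, then *Msx2* and *Zeb2* at 2.89 ± 0.347 and 2.83 ± 0.136 CPM per kb, and *Twist2* at 0.349 ± 0.0926 CPM per kb. Over all 6 libraries *Twist1* was at percentile 88.6 of the genes tested by this level, *Snai2* at 85.4, *Zeb2* at 58.3 and *Twist2* at 32.2.

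Related members were set against each other within each library, as ratios of CPM per kb. *Snai2* was 2.76, 2.095 and 2.25 times the level of *Snai1* in wildtype replicates 1, 2 and 3, and 1.53, 1.48 and 1.81 times in mutant replicates 1, 2 and 3. These ratios did not overlap between the groups (p = 0.1 in the two-sided exact permutation test, which can give no smaller value), and in this ratio wildtype replicate 1 was the farthest from the mutant libraries. For the other 3 pairs the groups overlapped. *Zeb1* was 3.74 ± 0.327 times the level of *Zeb2* under the wildtype label and 3.73 ± 0.180 times under the mutant label (SD, n = 3). *Msx1* was 2.296 ± 0.435 and 2.71 ± 0.588 times the level of *Msx2*, and *Twist1* was 70.3 ± 35.8 and 73.0 ± 9.76 times that of *Twist2*.

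The Mesenchymal marker list moved with these genes and the Myocardial list moved the other way. All 8 genes of the Mesenchymal list had a higher mean under the mutant label, with a median log2 fold change of 0.56, and its summed level was 9519, 6634 and 4892 CPM in wildtype replicates 1, 2 and 3, and 10460, 11480 and 8864 CPM in mutant replicates 1, 2 and 3. Its most abundant gene, the collagen gene *Col3a1*, had 2332 ± 804 CPM against 3500 ± 677 CPM (SD, n = 3). All 11 genes of the Myocardial list had a lower mean under the mutant label, with a median of −0.53 and sums of 29720, 33810 and 45180 CPM in the wildtype replicates and 24330, 20100 and 29440 CPM in the mutant replicates. Its most abundant gene, the slow myosin heavy chain *Myh7*, had 8090 ± 1662 CPM against 5730 ± 576 CPM (SD, n = 3). Wildtype replicate 1 thus lay near the mutant libraries and wildtype replicate 3 farthest from them in both lists. In bulk tissue, fewer cells of a type and less RNA per cell cannot be told apart. The part of tissue composition in the differences of the 10 genes was examined with covariates in the fit. With the mean of the Mesenchymal list as a covariate, added after the data were seen, the median log2 fold change of the 10 was 0.03, 5 were higher and 5 lower (*Snai2*, *Twist1*, *Zeb1*, *Zeb2* and *Msx2*). With the Myocardial mean in its place, as planned, the median was 0.22 and 8 of the 10 were higher. The exceptions were *Snai2* at −0.29 and *Zeb2* at −0.01. In either fit 0 of the 10 were called. Of all genes tested, 0.0568% were called with the Mesenchymal covariate and 0.0178% with the Myocardial covariate. These covariates themselves differ between the groups, so that composition and genotype label cannot be told apart.

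**Figure D3:**
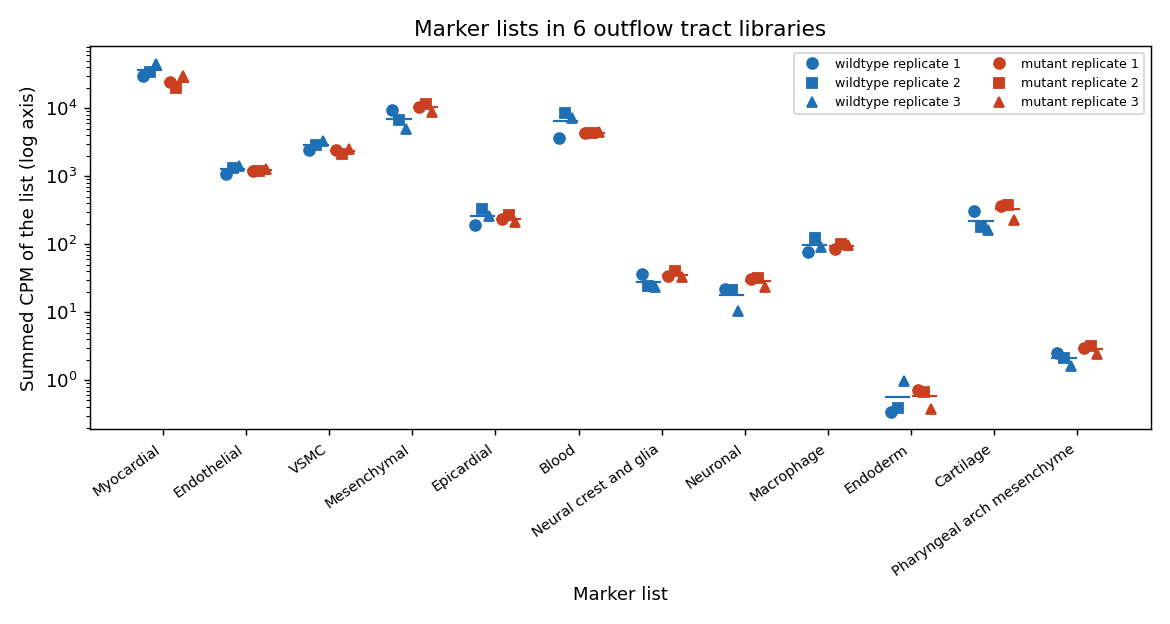
Summed CPM on a log axis (vertical) of 12 marker lists (horizontal) in the 6 OFT libraries, wildtype label in blue and mutant label in red. Symbols are single libraries and short lines are group means over 3 libraries. The Mesenchymal sum is lowest in wildtype replicate 3 at 4892 CPM, where the Myocardial sum is highest at 45180 CPM.

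The remaining marker lists varied in direction. The Cartilage list, led by *Col2a1*, shares 4 of its 6 genes (*Col2a1*, *Acan*, *Col9a1* and *Cnmd*) with the Sox9 targets below. It summed to 310.3, 177.3 and 162.2 CPM in the wildtype replicates and 367.7, 379.2 and 225.0 CPM in the mutant replicates, with 5 of 6 genes higher. The Blood list, led by *Hba-a1*, summed to 3666, 8403 and 7186 CPM in the wildtype replicates and 4356, 4326 and 4418 CPM in the mutant replicates, with 6 of 6 genes lower. Sums of the Endothelial list, led by *Cdh5*, were 1064 to 1396 CPM and 1178 to 1281 CPM, with 7 of 9 genes lower. Those of the VSMC list, led by *Acta2*, were 2420 to 3279 CPM and 2120 to 2493 CPM, with 3 of 6 genes lower. The Epicardial list, led by *Upk3b*, had 193.8 to 323.9 CPM and 213.1 to 267.0 CPM, with 4 of 6 genes lower, and the Macrophage list, led by *Csf1r*, had 76.1 to 122.9 CPM and 84.4 to 99.1 CPM, with 4 of 6 lower. The Neural crest and glia list, led by *Erbb3* and sharing *Sox10* with the paralogs below, had 23.6 to 36.4 CPM and 32.5 to 40.5 CPM, with 4 of 5 genes tested higher. The Neuronal list had 10.4 to 21.7 CPM and 23.4 to 32.2 CPM, with 4 of 5 genes higher, and its most abundant gene *Tubb3* had 6.96 ± 2.57 CPM against 17.1 ± 2.22 CPM (SD, n = 3). Lists of tissue beside the OFT had low sums. The Endoderm list, led by *Epcam*, had 0.337 to 0.955 CPM and 0.371 to 0.725 CPM, with 2 of 3 genes tested higher. The Pharyngeal arch mesenchyme list, led by *Alx1*, had 2.47, 2.12 and 1.63 CPM in the wildtype replicates and 2.97, 3.15 and 2.39 CPM in the mutant replicates, with 5 of 7 genes higher and a median log2 fold change of 0.71. *Shh*, *Foxa2*, *Nkx2-1* and *Foxd3* were not among the genes tested. The part of these other lists in the differences of the 10 genes was not tested.

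Genes that act before, beside and after these factors were taken from 7 lists, and with all 6 libraries and no further term in the fit edgeR called 0 genes of any of the 7, where 0.0213% of all genes were called. The counts below stand beside shares over all genes of 8.23% higher and 7.83% lower at an unadjusted p under 0.05, 2.31% and 1.91% by DESeq2, and 4.15% and 5.30% by edgeR without wildtype replicate 1. Upstream signals of cushion EMT comprise TGF-beta and BMP ligands and receptors and Notch pathway genes. Of 22 such genes 16 had a higher mean and 6 a lower mean under the mutant label (median log2 fold change 0.12), with 5 higher and 3 lower at an unadjusted p under 0.05. *Bmp6*, a ligand of the myocardium and cushions, had 43.8, 31.8 and 19.6 CPM in wildtype replicates 1, 2 and 3, and 61.6, 70.1 and 45.6 CPM in the mutant replicates, so its groups did not overlap. *Bmp2*, another BMP ligand, had 28.2, 14 and 13.7 CPM in the wildtype replicates and 28.0, 29.3 and 29.6 CPM in the mutant replicates, with wildtype replicate 1 at the mutant level. *Bmp7*, named after its values were seen as was *Bmp4*, went the other way without overlap. It had 119.7 ± 27.1 CPM against 85.2 ± 15.2 CPM (SD, n = 3, log2 fold change −0.49). *Bmp4* had a log2 fold change of 0.41, with overlap. Of the 22 genes, 3 had groups without overlap and the mutant label higher, and 2 with it lower, beside 10.7% and 8.94% of all genes tested. *Tgfbr3*, the TGF-beta type III receptor, had a lower mean, 38.0 ± 16.4 CPM against 20.4 ± 7.47 CPM (SD, n = 3, log2 fold change −0.90), with overlap. The most abundant gene, the endothelial coreceptor gene *Eng*, had a log2 fold change of 0.02. By DESeq2's Wald test 1 gene was called higher (*Bmp6*) and 1 lower (*Hey2*, a Notch target, named after its values were seen). Without wildtype replicate 1 edgeR called 4 higher and 2 lower. The median of this list was 0.07 without wildtype replicate 2, 0.08 without wildtype replicate 3, −0.04 with the Myocardial covariate and −0.06 with the Mesenchymal covariate.

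E-proteins pair with Twist factors, and Id proteins withhold E-proteins from such pairs. All 7 of these genes had a higher mean under the mutant label (median 0.36), and 3 were higher at an unadjusted p under 0.05. *Id1* had 68.3, 72.1 and 46.0 CPM in the wildtype replicates and 89.7, 108.0 and 72.4 CPM in the mutant replicates, and its groups did not overlap by a narrow margin. *Id3*, the most abundant of the list, had 152.5 ± 31.6 CPM against 213.6 ± 34.3 CPM (SD, n = 3), and *Id4* had a log2 fold change of 0.45. DESeq2 called 0 of the 7, and without wildtype replicate 1 edgeR called 1. The median fell to 0.22 without wildtype replicate 3, to 0.09 with the Myocardial covariate and to 0.06 with the Mesenchymal covariate.

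Other cushion transcription factors had 15 of 18 genes higher (median 0.20), 5 of them at an unadjusted p under 0.05. *Osr1* had 8.91, 10.7 and 6.19 CPM in the wildtype replicates and 15.6, 23.0 and 8.04 CPM in the mutant replicates, with overlap. *Meox1* had a log2 fold change of 0.73 and *Tbx3* of 0.62. The most abundant gene, the T-box gene *Tbx20*, had 558 ± 189 CPM against 731 ± 38.0 CPM (SD, n = 3). DESeq2 called 1 of the 18, *Nfatc1*, a factor of valve endocardium named after its values were seen, and gave no adjusted p for *Foxf1*. Without wildtype replicate 1 edgeR called 3 higher. Their median was 0.11 with GC content and length corrected for, 0.05 with the Myocardial covariate and 0.06 with the Mesenchymal covariate. Of the paralogs and bHLH relatives of the 10 genes, 9 of 11 were tested and all 9 had a higher mean (median 0.40, and 0.06 without wildtype replicate 1), 2 of them at an unadjusted p under 0.05. *Scx*, a tendon and valve factor, had 21.8, 17.9 and 9.37 CPM in the wildtype replicates and 30.4, 30.3 and 20.5 CPM in the mutant replicates. *Sox8* had a log2 fold change of 0.57 and *Hand1* of 0.40, and the most abundant, *Hand2*, of 0.03. DESeq2 gave no adjusted p for *Scrt1* and called 0 of the others, and without wildtype replicate 1 edgeR called 2 of the 9. With the Myocardial and the Mesenchymal covariate their median was 0.08 and 0.03.

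Cushion mesenchyme effectors are mostly matrix and adhesion genes, with the filament gene *Vim* and the receptor gene *Pdgfra*, and the list holds all 8 genes of the Mesenchymal marker list. Of 17 such genes 15 had a higher mean (median 0.54), 9 of them at an unadjusted p under 0.05, and 1 was lower at that level. *Has2*, the synthase of cushion hyaluronan, had 33.0, 16.7 and 10.5 CPM in wildtype replicates 1, 2 and 3, and 33.2, 34.3 and 25.4 CPM in the mutant replicates. *Tnc*, the tenascin-C gene, had 462, 208 and 116 CPM in the wildtype replicates and 453, 463 and 321 CPM in the mutant replicates, so wildtype replicate 1 was again at the mutant level. *Fbln2* had a log2 fold change of 0.68. DESeq2 called 2 of the 17 higher (*Hapln1* and *Col1a1*, named after their values were seen), and without wildtype replicate 1 edgeR called 11 higher. Without wildtype replicate 3 the median of the effectors was 0.30, and it was 0.10 with the Myocardial covariate and −0.02 with the Mesenchymal covariate, whose genes are part of the list.

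Junction genes that EMT factors repress had 10 of 13 genes lower (median −0.20), 1 of them at an unadjusted p under 0.05, and 1 higher at that level, which is near the shares over all genes. *Cdh5* and *Esam* are also in the Endothelial list and *Epcam* in the Endoderm list. *Krt18*, a keratin of simple epithelia, had 19.9, 26.9 and 25.7 CPM in the wildtype replicates and 18.8, 19.8 and 17.5 CPM in the mutant replicates, a narrow gap between the groups. *Cldn3* had a log2 fold change of 0.52 and *Cldn5* of 0.36, both claudins of tight junctions. The most abundant gene, the endothelial cadherin gene *Cdh5*, had 257.9 ± 35.1 CPM against 222.9 ± 12.7 CPM (SD, n = 3). DESeq2 gave no adjusted p for *Cdh1*, *Epcam*, *Cldn4* and *Crb3*, and called 0 of the others. Without wildtype replicate 1 edgeR called 2 lower, *Krt18* and *Cdh5*. The median of these 13 rests on weak genes, being that of *Crb3* at 0.177 CPM against 0.156 CPM (standard error 0.67, named after its values were seen). It was −0.07 by limma-voom, −0.11 over the 10 genes that pass edgeR's own filter on low counts, −0.13 without wildtype replicate 3, −0.04 with the Myocardial covariate and −0.08 with the Mesenchymal covariate.

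Sox9 activates genes of cartilage matrix that are also active in valve mesenchyme, and the list adds its partner factors *Sox5* and *Sox6*. Of 12 such genes 11 had a higher mean (median 0.78), 6 of them at an unadjusted p under 0.05. *Matn4*, a matrilin gene, had 16.3, 6.65 and 5.36 CPM in wildtype replicates 1, 2 and 3, and 27.4, 31.1 and 20.5 CPM in the mutant replicates. *Col9a3*, a type IX collagen gene, had 75.13, 34.98 and 18.95 CPM in the wildtype replicates and 121.6, 132.9 and 75.27 CPM in the mutant replicates, with wildtype replicate 1 and mutant replicate 3 nearly equal. The groups of both did not overlap, as for 4 of the 12 genes in all, each with the mutant label higher. Of all genes tested, 10.7% did so. *Col9a1* had 62.95 ± 45.45 CPM against 139.0 ± 41.4 CPM (SD, n = 3), with overlap, and the most abundant gene, *Col2a1*, had a log2 fold change of 0.23. DESeq2 called 2 of the 12 higher (*Col9a2* and *Col11a2*, named after their values were seen), and without wildtype replicate 1 edgeR called 9 higher. The median of these targets was 0.48 without wildtype replicate 3, 0.22 with the Myocardial covariate and −0.0045 with the Mesenchymal covariate.

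The genes most like each factor were sought among 9779 protein-coding genes that averaged 10 CPM or more (9780 for *Twist2* and *Msx2*), by the root mean square difference of log2 values centred on the gene's mean over the 6 libraries. For *Snai1* these were *Nfatc4* (difference 0.03) and *Bmp6* (0.07), beside a standard deviation of the *Snai1* profile itself of 0.69. For *Sox9* they were *Fgfr2* (0.09) and *Enc1* (0.13), for *Prrx1* *Col6a3* (0.08) and *Apcdd1* (0.10), and for *Msx1* *Dnm1* (0.05) and *Plppr3* (0.07). *Zfp503* (0.07) was among the genes nearest to *Twist1*. *Msx2* was nearest to *Psd3* (0.05) and *Nt5e* (0.07), and *Snai2* to *Nedd9* and *Crispld1* (both 0.11). The flat profiles of *Zeb1* and *Zeb2* were nearest to *Rbm6* and *Qpct* (both 0.02) and to *Zfp280d* and *Dhx36* (both 0.03), and the weak one of *Twist2* to *Zgpat* and *Kctd17* (both 0.05). The mean profile of the 10 was nearest to *Xylt1* (0.04), *Rhou* and *Bgn* (both 0.06), and *Pkd2* and *Myof* (both 0.07). With 6 libraries many genes share such a profile.

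Runs of 50 bases, the length of the reads, were not shared between the transcripts of *Snai1* and *Snai2*, *Twist1* and *Twist2*, *Zeb1* and *Zeb2* or *Msx1* and *Msx2* (0 shared runs in each pair). *Snai1*, *Twist1*, *Msx1* and *Sox9* shared 0 such runs with the transcripts of any other gene on either strand. *Snai2*, *Msx2* and *Prrx1* shared 0.963%, 0.465% and 0.171% of their runs with other genes. For *Zeb1* and *Zeb2* the shares were 1.76% and 2.26%, the most with *Gm10125* and with *Zeb2os*. *Twist2* shared 45.7% of its 3125 runs with *Gm29100*, an antisense gene on chromosome 1 from 91798528 to 91802937 that had 38 counts over all libraries beside 214 for *Twist2*. The library kit keeps the strand, but whether the counting used it is not given in the sources used here, so the counts of *Twist2* are uncertain. *Gm29101*, inside *Twist2*, had 10 counts. *Gm10125*, antisense to *Zeb1*, had 964 counts beside 24676 for *Zeb1*, and *Zeb2os*, antisense to *Zeb2*, had 87 beside 12966. *Gm29100*, *Gm29101*, *Gm10125* and *Zeb2os* had edgeR adjusted p of 0.642, 0.875, 0.806 and 0.957. The annotation holds further small genes inside *Zeb1* (*Gm22709*, *Gm16147*), *Zeb2* (*Mir5129*, *Gm27645*, *Gm27761*, *Gm27404*) and *Prrx1* (*Gm20471*, *Gm26523*, *Gm37644*), which the counts table does not list. *Snai1*, *Snai2*, *Twist1*, *Msx1*, *Msx2* and *Sox9* overlap no other annotated gene.

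Promoter windows from RefSeq (GRCm38.p6, 250 bases before to 50 bases after the start) were found for 7 of the 10 members, *Snai1*, *Twist1*, *Twist2*, *Zeb2* (4 starts), *Prrx1*, *Msx1* and *Msx2*. *Snai2*, *Zeb1* and *Sox9* were not in that table. They were searched on both strands for CAGGTG, the E-box of Snail and Zeb factors (in 20.2% of all 32851 windows), CATATG, an E-box of Twist (3.91%), TGGGAA, the core of Rbpj sites (25.6%), CAGAC of Smad proteins (49.6%), TAATTG of homeobox factors (8%) and ACAAT of Sox factors (31%). CAGGTG occurred once each in the windows of *Snai1* and *Msx1*, in both as its reverse complement CACCTG. It began 126 bases before the start of *Snai1* and 210 bases before that of *Msx1*. That of *Msx1* also held TGGGAA after the start. The window of *Twist1* held CAGAC 9 bases before the start and ACAAT, as ATTGT, 190 bases before it. That of *Prrx1* held 2 matches to CAGAC and 1 to ACAAT, and among the 4 windows of *Zeb2* 1 held TAATTG and 1 held TGGGAA. Windows of *Twist2* and *Msx2* held 0 of the motifs. CATATG was in 0 of the members' windows. The bases before the start are printed for 3 genes, *Snai1*, *Twist1* and *Msx1*, which were all higher at an unadjusted p under 0.05. Motifs are in capitals. The bases are from chr2:167537945-167538194 (plus strand), chr12:33957421-33957670 (plus strand) and chr5:37824586-37824835 (minus strand). *Prrx1*, also higher at that level, held CAGAC 19 bases before its start and is not printed. A match describes these letters and not a bound site.
Snai1: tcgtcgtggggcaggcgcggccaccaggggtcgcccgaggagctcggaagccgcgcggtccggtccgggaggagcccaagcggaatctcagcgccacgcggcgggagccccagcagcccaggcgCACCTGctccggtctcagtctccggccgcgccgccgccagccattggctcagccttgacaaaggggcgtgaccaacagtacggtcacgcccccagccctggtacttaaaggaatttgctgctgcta
Twist1: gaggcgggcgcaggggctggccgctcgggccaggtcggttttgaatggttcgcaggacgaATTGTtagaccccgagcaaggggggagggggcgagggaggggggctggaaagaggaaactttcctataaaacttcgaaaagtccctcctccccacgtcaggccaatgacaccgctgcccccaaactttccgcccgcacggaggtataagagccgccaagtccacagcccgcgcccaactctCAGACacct
Msx1: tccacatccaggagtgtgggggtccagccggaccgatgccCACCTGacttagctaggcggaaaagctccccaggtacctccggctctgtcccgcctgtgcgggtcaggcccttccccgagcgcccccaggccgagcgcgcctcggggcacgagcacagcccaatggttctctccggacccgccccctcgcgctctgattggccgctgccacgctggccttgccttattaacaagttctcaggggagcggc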

How the data were processed

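Bulk RNA-Seq of the E13.5 OFT was analysed in 6 libraries, 3 labelled mutant and 3 labelled wildtype. The authors sequenced paired-end reads of 50 bases from stranded libraries depleted of ribosomal RNA, aligned them to mm10 and counted them per gene, and the deposited values are whole-number counts without normalization. The submitters' processing notes name TopHat2 2.1.0, Bowtie2 and DESeq2 1.26.0. The annotation release and the use of strand in counting are not given in the sources used here. Titles and descriptions of wildtype replicates 2 and 3 carry exchanged library numbers, which leaves their numbering uncertain but not their group.

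The counts were fitted with edgeR 4.0.16 in R 4.3.3 (TMM, quasi-likelihood test), limma 3.58.1 and DESeq2 1.42.0. The 620 genes whose reads summed to 5, the fewest in the table, were dropped, following the study's own filter. The code was tested on simulated data. Gene positions and exon lengths came from GENCODE for GRCm38, which holds 28723 of the 28777 identifiers. The members and lists were chosen with earlier results of these data known. Named are the members, the targeted genes, overlapping genes, the nearest genes by profile, and from each list the 3 genes of largest fold change that average 1 CPM or more and the most abundant gene. Lists came from general knowledge. Not every gene that this rule names is reported here. The alternatives covered the test, scaling, filter, threshold, a replicate block, GC content and length, a Myocardial covariate and each library left out. A block on the numbers of the descriptions and a Mesenchymal covariate were added after the data were seen. Protein sequences were not analysed here.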

Additional observations from a re-analysis of the deposited data

How the results depend on the processing

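With all libraries edgeR called 5 genes higher and 1 lower under the mutant label, and 0 of the 10 transcription factors. By DESeq2 410 were higher and 339 lower, and 2 of the 10 higher. Samples share only a replicate number with the other group, and not every sample correlated best with its own number. Across all genes tested, which are not independent, mutant replicates 1, 2 and 3 had r = 0.0209, 0.0418 and 0.123 with the wildtype replicate of their number, and 0.0960, 0.159 and 0.420 across genes of at least 1 CPM. These were the highest for mutant replicates 1 and 3, while mutant replicate 2 had r = 0.0680 and 0.277 with wildtype replicate 1. With that number as a block, 895 genes were called higher and 682 lower, and 5 of the 10 (*Snai1*, *Twist1*, *Prrx1*, *Msx1* and *Sox9*). This block called 8 of 22 upstream signals, 4 of 18 other cushion factors, 2 of 7 E-proteins and Ids, 12 of 17 effectors, 8 of 12 Sox9 targets, 1 of 9 paralogs and 0 of 13 junction genes, where it called 5.6% of all genes tested. The block together with the GC and length correction called 921 higher and 1314 lower, and 5 of the 10, with *Zeb2* at −0.0089. A block on the numbers of the descriptions, chosen after seeing the data, called 62 higher and 21 lower (0.295% of all genes tested), 2 of the 10 (*Msx1* and *Sox9*), 3 of 12 Sox9 targets and 0 genes of the other lists. *Notch1* kept its call under these blocks (edgeR adjusted p = 0.000123, 0.000232 and 0.00971). *Nos3*, not called without a block, was called lower under them (edgeR adjusted p = 0.000271, 6.164e-05 and 0.0125). The GC and length correction alone called 3 higher, with *Zeb2* at −0.0092. An adjusted p of at most 0.01 left 1 higher. The Myocardial covariate called 3 higher and 2 lower, with *Snai2* at −0.29 and *Zeb2* at −0.0149. The Mesenchymal covariate, chosen after seeing the data, called 7 higher and 9 lower, with a median of 0.0333 over the 10, *Snai2* at −0.51, *Twist1* at −0.0094, *Zeb1* at −0.0407, *Zeb2* at −0.15 and *Msx2* at −0.16. Leaving out 1 library at a time, 0 to 1139 genes were called higher and 1 to 1454 lower, and 0 to 7 of the 10, the highest counts all without wildtype replicate 1. *Snai2* then lay between −0.0119 and 0.88 and *Zeb2* between −0.0192 and 0.24. Scaling by library size only moved the median of all genes from 0.01 to 0.11. The causes were not tested.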
